A study of Mus musculus with 6 samples.

Results

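Basement membrane transcripts were followed in mouse embryos cultured in narrow or wide cavities. The set comprised 34 genes, namely 10 laminin chains, the 6 collagen IV chains, the nidogens, the proteoglycans and collagens of the heparan sulfate group, the receptor subunit dystroglycan, SPARC and its relatives, fibulins, fibronectin, a netrin and the Fraser complex with nephronectin. Genes were taken by symbol from array features that name exactly 1 gene; of several such features the brightest on average would have stood for a gene. Each of the 34 listed genes had 1 such feature, among 19938 genes measured in all.

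A basement membrane is a thin sheet of extracellular matrix under an epithelium. Laminin trimers of an α, a β and a γ chain polymerise on the cell surface, bound by integrins and dystroglycan, and collagen IV trimers form a second network that is cross-linked outside the cell. Nidogens and perlecan bridge the networks. In the egg cylinder such a sheet lies between the epiblast or extraembryonic ectoderm and the visceral endoderm around them, and parietal endoderm secretes a far thicker one, Reichert's membrane.

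Embryos of the outbred CD1 strain were collected at embryonic day 5.0 and kept for 8 hours in cavities of 90 µm (narrow) or 180 µm (wide) diameter. The series asked how embryos differ when cultured with or without external mechanical cues. Each group had 3 biological replicates, and a replicate was a pool of 30 whole embryos whose RNA was hybridized to an Affymetrix Mouse Gene array. The pools carried no stated genetic modification and no agent other than the culture itself, and freshly collected embryos were not analysed here. Epiblast, extraembryonic ectoderm and endoderm layers were measured together, so fewer cells of a type and less RNA per cell cannot be told apart.

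Values are log2 signals, so a difference of 1 is a doubling, and each gene is compared only with itself across arrays. The 6 array medians ran from 7.62 to 7.67, and the least similar pair of arrays had a correlation of 0.998 across genes (genes are no independent replicates). The pools held the tissues of the labelled stage. The epiblast factor Pou5f1 averaged 11.81 in narrow and 11.83 in wide pools, the visceral endoderm gene Ttr 12.26 and 12.31, and the extraembryonic ectoderm factor Elf5 11.80 and 11.76. The leukocyte gene Ptprc lay at percentile 17.4 of mean signal, and the endothelial genes Pecam1 and Cdh5 at percentiles 70.9 and 97.6. Other endothelial genes were lower, with Kdr at percentile 50.1, Tie1 at 35.8 and Emcn at 7.62. The stromal genes Dcn and Col1a1 lay at percentiles 60.1 and 51.7. At or above the median signal were 4 of 9 measured blood and endothelium markers and 3 of 12 markers of maternal decidua and stroma. The summed signal of 12 parietal endoderm markers, on the log2 scale, was 13.96 to 14.05 in narrow and 13.97 to 14.03 in wide pools, and that of 18 visceral endoderm markers was 16.36 to 16.40 and 16.38 to 16.39. Both ranges overlapped between the cavities, with Gata6 and Sox17 counted in both sums, but single visceral endoderm markers were not all level. Narrow minus wide, 8 of the 18 were positive and 10 negative, and 0 passed the adjusted threshold given below. Trf had the largest difference, 0.18 ± 0.05 (SE), and every narrow pool lay above every wide pool, as in 4.17% of all genes. Hnf4a lay the other way without overlap, at -0.06 ± 0.04. Rbp4 (0.18 ± 0.09) and Foxa2 (0.13 ± 0.06) overlapped between cavities.

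Signals of the basement membrane genes were nearly the same in both cavities. Of the 34, 0 passed at a Benjamini-Hochberg adjusted p under 0.05 by limma, against 0% of the 19938 genes, and no member had an adjusted p below 1.00. Without adjustment 1 member had a p under 0.05, the laminin chain gene Lama3, against 3.40% of all genes in either direction. It was lower in narrow cavities, as were 1.72% of genes, and 0 members were higher, against 1.68%. This 1 gene is 2.94% of the members, close to the background. Differences, narrow minus wide, were positive for 16 members and negative for 18, with a median of -0.003, and 50.9% of all genes had a positive difference. The median size of a difference was 0.019 for the members and 0.035 for all genes.

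**Figure D1:**
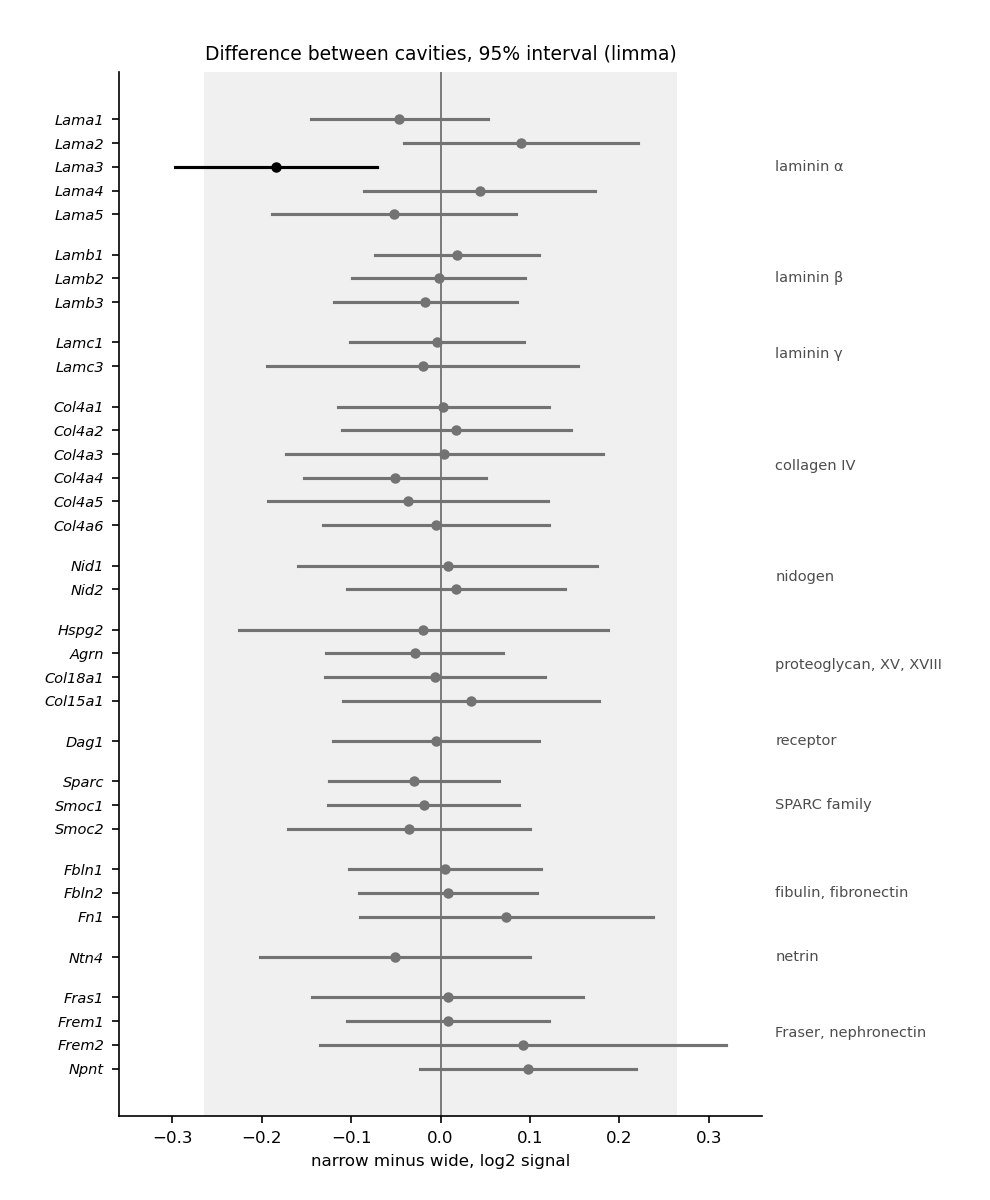
Narrow minus wide difference in log2 signal for the 34 genes (points) with the 95% interval of the limma fit (lines), by role at the right; the grey band marks differences under 1.2-fold. The interval leaves out 0 for Lama3 alone, drawn in black, and 32 of the 34 intervals lie inside the band.

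The intervals show which sizes of change the arrays still allow. For 32 of the 34 genes the 95% interval of the difference lay wholly within 1.2-fold in either direction, and the same held for 90.2% of all genes. The exceptions were Lama3, whose interval reached -0.30, and Frem2, whose interval reached 0.32. Of the 34, 16 lay under the median signal of all genes. Without a background measure, a narrow interval for a dim gene bounds its signal and not its expression. The 34 intervals come from the fit without pairing. Narrow minus wide in same-numbered pools was 0.06, 0.15 and 0.06 for Frem2, and a fit with a replicate block gave it a difference of 0.09 ± 0.04 (95% interval -0.0004 to 0.18, unadjusted p = 0.0506, adjusted p = 0.678 by limma).

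The laminin α chains decide where a trimer is laid down and which receptor it meets. Lama3 encodes the α3 chain of epithelial laminins, which anchor hemidesmosomes. Its signal was 7.70, 7.79 and 7.66 in narrow pools 1 to 3 and 7.91, 7.95 and 7.85 in wide pools 1 to 3. Every narrow pool lay below every wide pool, a separation in this direction that 3.54% of all genes showed. The means were 7.72 ± 0.06 and 7.90 ± 0.05 (SD, n = 3 each), a 1.14-fold lower signal in narrow cavities. By limma the difference was -0.18 ± 0.05 (SE, 95% interval -0.30 to -0.07, unadjusted p = 0.00563, adjusted p = 1.00), so it did not pass over all genes. An exact two-sided permutation test of Lama3 alone gave p = 0.1, the smallest that 3 against 3 pools allow. Within same-numbered pools the difference was -0.20, -0.16 and -0.19.

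The partners of the α3 chain did not separate in the same way. Lamb3, the β chain that pairs with α3 in epithelia, had 7.59, 7.67 and 7.63 in narrow and 7.65, 7.60 and 7.69 in wide pools, a difference of -0.02 ± 0.04. These groups overlapped. Receptor and hemidesmosome genes, looked up for their link to α3 after the values of Lama3 were seen, gave -0.09 ± 0.08 for Itgb4, -0.05 ± 0.06 for Itga6 and -0.03 ± 0.05 for Col17a1. Of 11 measured markers of extraembryonic ectoderm, 8 had negative differences, with Esrrb at -0.22 ± 0.04 and Bmp4 at -0.21 ± 0.08. These 2 had an unadjusted p under 0.05 by limma (0.00107 and 0.0265), against 3.40% of all genes. Every narrow pool lay below every wide pool in Esrrb, Bmp4 and Bmp8b (-0.09 ± 0.05), as in 3.54% of all genes. Positive differences were found for 3 markers, Tfap2c at 0.09 ± 0.05, Elf5 at 0.04 ± 0.04 and Fgfr2 at 0.04 ± 0.04. In Tfap2c every narrow pool lay above every wide pool, as in 4.17% of all genes. The summed signal of the 11 overlapped between cavities, at 14.79 to 14.87 in narrow and 14.84 to 14.89 in wide pools. Differences were negative in 9 of 12 measured epiblast markers. They were positive in all 6 measured markers of trophoblast giant cells and ectoplacental cone, where 50.9% of all genes had a positive difference. These 6 were part of 10 listed, and the giant cell gene Prl3d1 was not among the measured. Ctsq (0.004 ± 0.04) and Tpbpa (0.09 ± 0.09) were very dim, at percentiles 2.86 and 3.83 of mean signal. By limma 0 of these markers passed the adjusted threshold, and their part in the difference of Lama3 was not tested.

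Lama1 encodes the α1 chain of early embryonic laminins. Its signal was 12.06, 12.13 and 12.13 in narrow and 12.11, 12.17 and 12.17 in wide pools. The groups overlapped, and the difference was -0.05 ± 0.04 (95% interval -0.14 to 0.05, unadjusted p = 0.316 by limma). Narrow was the lower of each same-numbered pair, by -0.05, -0.04 and -0.05. A fit with a replicate block gave Lama1 -0.05 ± 0.03 (95% interval -0.13 to 0.04, unadjusted p = 0.222 by limma). Lama5, the α5 chain that takes over in later epithelial basement membranes, had a difference of -0.05 ± 0.06. Lama2, the chain of muscle and nerve basement membranes, was dim at 6.17, 6.32 and 6.25 in narrow and 6.19, 6.07 and 6.20 in wide pools (0.09 ± 0.06). Its highest values were narrow 2 and 3 and its lowest was wide 2, and the groups overlapped. Lama4, of vessel walls, stood at 0.04 ± 0.06.

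The β1 and γ1 chains are shared by many laminins of the embryo. Lamb1 had 11.80, 11.84 and 11.81 in narrow and 11.78, 11.78 and 11.83 in wide pools. Lamc1 had 12.32, 12.35 and 12.34 in narrow and 12.29, 12.35 and 12.39 in wide pools. Both sets of values were interleaved, and all 6 arrays lay within 0.060 of each other for Lamb1 and 0.096 for Lamc1. The differences were 0.02 ± 0.04 for Lamb1 (95% interval -0.07 to 0.11) and -0.004 ± 0.04 for Lamc1 (-0.10 to 0.09). Lamb2, the β chain of neuromuscular and kidney laminins, had -0.002 ± 0.04 and Lamc3 -0.02 ± 0.08.

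Collagen IV is the collagen found in every basement membrane, and its α1 and α2 chains combine in one trimer. Col4a1 had 10.54, 10.67 and 10.59 in narrow and 10.54, 10.64 and 10.62 in wide pools. Col4a2 had 10.36, 10.53 and 10.43 in narrow and 10.36, 10.46 and 10.45 in wide pools. The cavities did not separate for either gene, with differences of 0.003 ± 0.05 (95% interval -0.11 to 0.12) and 0.02 ± 0.06 (-0.11 to 0.15). For both genes the pools numbered 1 were the lowest and narrow 2 was the highest. Within an array the log2 signal of Col4a1 minus that of Col4a2 stayed between 0.146 and 0.183, a span of 0.037, where the signals of the genes themselves spanned 0.138 and 0.173. This subtraction joins different probes, so only its spread over arrays carries meaning.

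Col4a1 and Col4a2 stand head to head on mouse chromosome 8 and are known for a shared promoter that reads both ways. In RefSeq (GRCm38.p6) the Col4a1 start on the minus strand and the Col4a2 start on the plus strand were 21 bases apart, with the first exons overlapping. The stretch between these starts, at chr8:11312805-11312826, is shown on the plus strand because transcripts of both genes begin in it; capitals mark a GC box, the letters GGGCGG bound by Sp1-like factors.
Col4a1 and Col4a2 starts: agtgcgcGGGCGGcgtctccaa

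The other collagen IV genes make the chains of more specialised membranes, such as those of kidney and lens. Col4a5 and Col4a6 also form a head to head pair, on the X chromosome, with starts 1343 bases apart. The 4 genes were dim, between 6.71 and 7.36 in every array, and their differences were 0.004 ± 0.08 for Col4a3, -0.05 ± 0.04 for Col4a4, -0.04 ± 0.07 for Col4a5 and -0.01 ± 0.05 for Col4a6. Col4a4 was measured at 7.25, 7.27 and 7.23 in narrow and 7.29, 7.25 and 7.36 in wide pools, and the groups overlapped. No background measure came with the values, so low expression and no expression look alike here.

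Nidogens link the laminin and collagen IV networks. Nid1 had 11.51, 11.72 and 11.67 in narrow and 11.50, 11.70 and 11.67 in wide pools, and same-numbered pools differed by no more than 0.015. The cavity difference was 0.01 ± 0.07 (95% interval -0.16 to 0.18), and that of Nid2 was 0.02 ± 0.05. In both genes the pools numbered 1 were low in either cavity.

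Perlecan, the product of Hspg2, binds growth factors through heparan sulfate chains. Its signal was 10.66, 10.93 and 10.92 in narrow and 10.71, 10.97 and 10.89 in wide pools. The cavities overlapped, at -0.02 ± 0.09, whereas both pools numbered 1 lay below the other 4 by 0.187 or more. Agrin (Agrn, -0.03 ± 0.04), the proteoglycan that clusters receptors at the nerve-muscle junction, and the collagens XVIII (Col18a1, -0.01 ± 0.05) and XV (Col15a1, 0.03 ± 0.06) overlapped between cavities as well. Dag1 encodes dystroglycan, which ties laminin to the cytoskeleton, and had 12.30, 12.31 and 12.43 in narrow and 12.30, 12.37 and 12.38 in wide pools (-0.01 ± 0.05).

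Sparc encodes a calcium-binding protein that binds collagen IV and is made in bulk by parietal endoderm. It had 13.17, 13.12 and 13.10 in narrow and 13.17, 13.18 and 13.13 in wide pools. The 6 arrays lay within 0.080 of each other, and the difference was -0.03 ± 0.04 (95% interval -0.12 to 0.06). Its relatives Smoc1 and Smoc2 had -0.02 ± 0.05 and -0.04 ± 0.06. Fibulins are glycoproteins that bind laminin and fibronectin, and Fbln1 (0.005 ± 0.05) and Fbln2 (0.01 ± 0.04) were near 0.

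Fibronectin, from Fn1, is the main ligand of integrin α5β1 and is laid down beside the basement membrane. Its signal was 10.72, 10.90 and 10.87 in narrow and 10.64, 10.78 and 10.86 in wide pools. Narrow was the higher of each same-numbered pair, by 0.08, 0.12 and 0.02, while the groups overlapped and the difference was 0.07 ± 0.07 (95% interval -0.09 to 0.24, unadjusted p = 0.333 by limma). With a replicate block it was 0.07 ± 0.04 (95% interval -0.02 to 0.17, unadjusted p = 0.105 by limma). Netrin-4 (Ntn4), which disturbs laminin polymerisation, had -0.05 ± 0.07.

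Nephronectin, from Npnt, is a ligand of integrin α8β1. It had the largest positive difference of the 34, from 8.04, 8.01 and 8.17 in narrow against 7.99, 8.01 and 7.93 in wide pools. Every narrow pool lay above every wide pool, as in 4.17% of all genes, but narrow 2 exceeded wide 2 by only 0.006. The difference was 0.10 ± 0.05 (95% interval -0.02 to 0.22, unadjusted p = 0.0998, adjusted p = 1.00 by limma). Together Lama3 and Npnt made 2 members of 34 without overlap between cavities, 5.88% against 7.70% of all genes. The Fraser complex proteins, which hold epithelium and mesenchyme together, had differences of 0.01 ± 0.07 for Fras1, 0.01 ± 0.05 for Frem1 and 0.09 ± 0.10 for Frem2. Frem2 ran from 7.74 to 8.11 over the 6 arrays, the widest spread of the set.

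**Figure D2:**
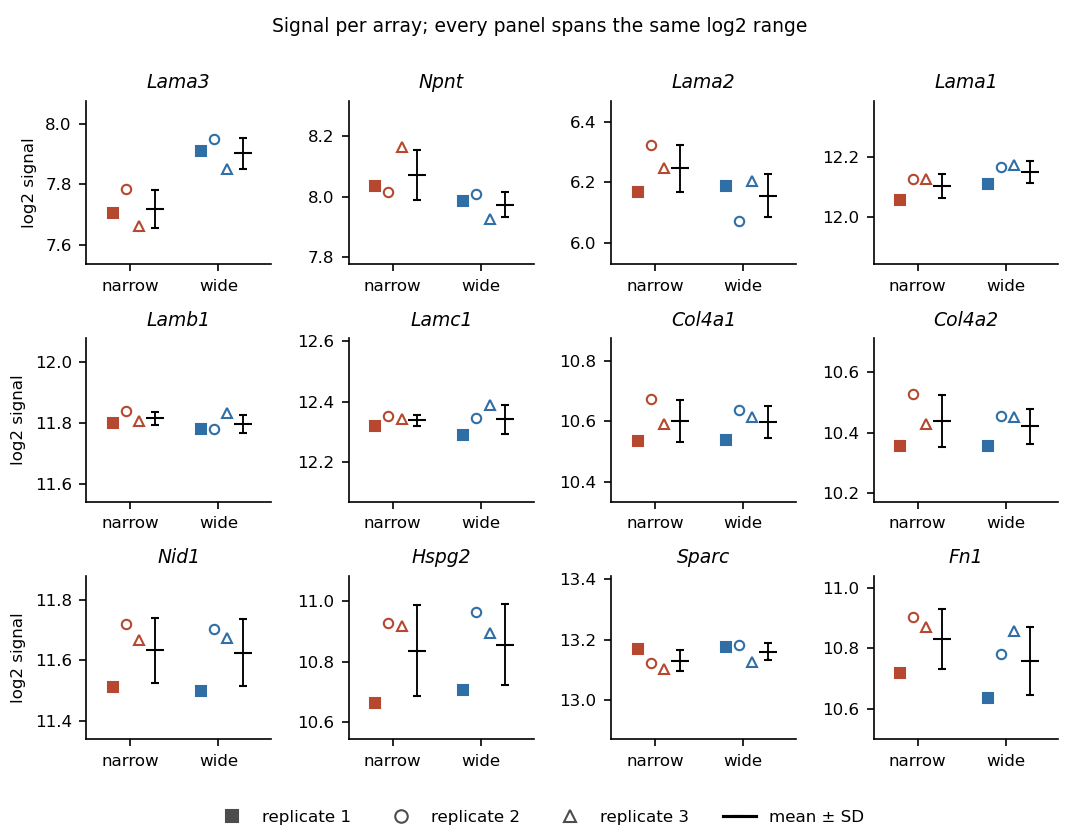
Log2 signal of 12 members in each pool, with red for narrow and blue for wide cavities, the symbol giving the replicate number and bars the mean ± SD (n = 3); every panel spans the same log2 range. Lama3 and Npnt are the members whose cavities do not overlap, while in Nid1, Hspg2 and Fn1 the filled squares of replicate 1 lie low in both cavities.

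Genes that receive, modify or degrade the basement membrane were read from the same fit. Of 23 genes for receptors and their linkers 0 passed the adjusted threshold, and 15 had positive differences with a median of 0.03. The collagen receptor kinase Ddr1, at 0.15 ± 0.05 (unadjusted p = 0.0105, adjusted p = 1.00 by limma), had the smallest p of the list. The dystrophin-complex gene Sgcb had 0.10 ± 0.05 and the tetraspanin gene Cd151, whose product accompanies laminin-binding integrins, 0.06 ± 0.04.

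Dystroglycan binds laminin only through sugars added by a chain of enzymes. Of 10 measured of 14 listed genes for them 0 passed, with a median of 0.03, and the smallest unadjusted p belonged to B4gat1 (0.11 ± 0.06), B3galnt2 (-0.08 ± 0.04) and Dpm1 (-0.05 ± 0.05). Of 25 measured genes for folding, export and cross-linking of matrix chains 0 passed, the median was -0.003 and 12 were positive. Crtap, of the collagen prolyl 3-hydroxylation complex, had 0.07 ± 0.05, the coat protein gene Sec23a 0.06 ± 0.04 and P3h3 0.06 ± 0.05.

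A further 22 measured genes of basement membrane and adjoining matrix had a median of 0.04, and 0 passed. Among them were hemicentin Hmcn1 (-0.12 ± 0.06), Ntn1 (0.07 ± 0.05) and the anchoring fibril collagen Col7a1 (-0.05 ± 0.05). Of 15 measured proteases and inhibitors 0 passed, with a median of 0.01. The metalloprotease Adamts1 had 0.13 ± 0.06, Reck, a membrane inhibitor of metalloproteases, had -0.10 ± 0.04, and the inhibitor Timp1 had 0.08 ± 0.05. Of the 95 measured genes in these 5 lists, 1 had an unadjusted p under 0.05, against 3.40% of all genes. Every narrow pool lay above every wide pool in 3 of the 95 (Ddr1, Cd151 and B4gat1), against 4.17% of all genes, and below in 4 (Reck, B3galnt2, Tinagl1 and Loxl3), against 3.54%. These genes were picked out after their values were seen.

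Across the pools, most members differed more by replicate number than by cavity. Both pools numbered 1 lay below the other 4 pools in 18 of the 34 members, against 19.9% of all genes, and above them in 1, Fbln1, against 12.2% of all genes. In Fbln1 the margin was small, at 11.254 in narrow 1 and 11.253 in wide 1 against 11.242 in narrow 2. Its 6 arrays lay within 0.100 of each other, where those of Sparc lay within 0.080. The 18 included Lama1, Lamc1, Col4a1, Col4a2, Nid1, Nid2, Hspg2, Agrn, Dag1 and Fn1. The mean of the pools numbered 1 minus that of the others was -0.24 for Hspg2, -0.22 for Frem2, -0.18 for Nid1 and -0.18 for Fn1, while Sparc had 0.04 and Lama3 -0.005. In size this difference exceeded the cavity difference in 29 of the 34 members, and in 66.4% of all genes. The labels do not say what a replicate number stands for, so no group of the study is compared here.

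The count depended on how the arrays were scaled. The median of this difference was -0.07 over the members and -0.02 over all genes. With each array centred on its median, a scaling that moved the median of all genes to 0.0004, the members' median was -0.05 and 9 members were lowest in both pools numbered 1, against 13.6% of genes. After quantile normalization the median was -0.06 and 13 were lowest, against 17.0%. The same 9 members were lowest under all 3 scalings: Lama1, Col4a1, Col4a2, Nid1, Nid2, Hspg2, Agrn, Fn1 and Frem2. Of 18 members at or above the median signal, 12 were lowest on the deposited scaling, 8 after centring and 12 after quantile normalization. Among all genes of such signal the shares were 17.8%, 11.9% and 22.1%. Of the 16 members under the median signal 6, 1 and 1 were lowest, against 22.0%, 15.3% and 11.9% of such genes. The summed parietal endoderm markers lay lower in the pools numbered 1 under all 3 scalings, on the deposited one with a signal of 13.96 to 13.97 in these pools and 13.99 to 14.05 in the others, and a median over the 12 genes of -0.03 beside -0.02 for all genes. The summed epiblast markers lay the other way, at 15.05 to 15.08 in the pools numbered 1 and 14.98 to 15.04 in the others, except that these ranges overlapped after quantile normalization. Those of visceral endoderm overlapped, at 16.38 in both against 16.36 to 16.40, but after quantile normalization lay lower in the pools numbered 1, at 16.36 to 16.37 against 16.38 to 16.41. Of the 12 parietal markers 3 were lowest in both pools numbered 1 on the deposited scaling, against 19.9% of all genes. These were Krt7, Pdgfra and Gata6, and Gata6 and Sox17 also stand in the visceral endoderm list. The part of any of these marker lists in the pattern was not tested.

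**Figure D3:**
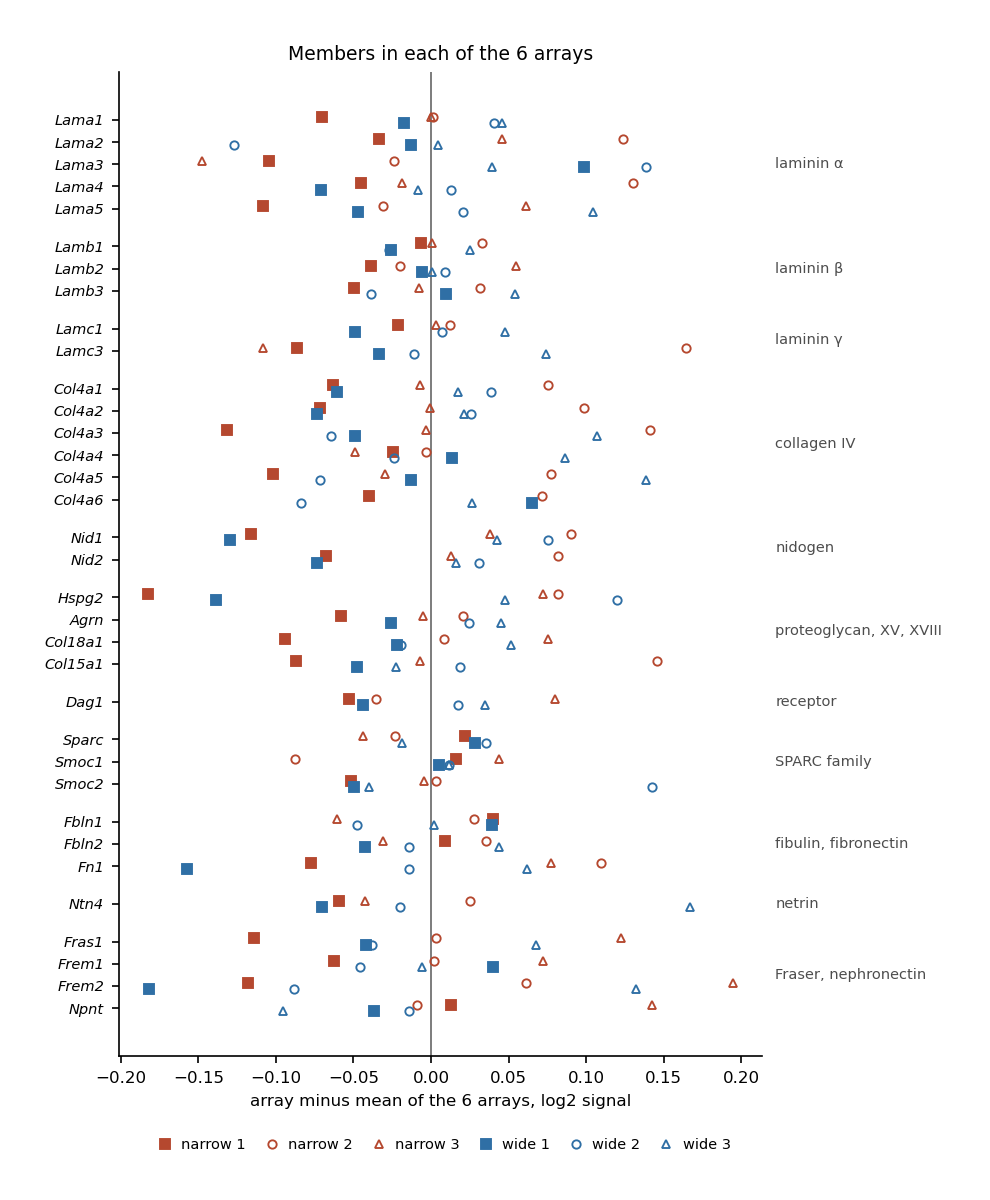
Each array's log2 signal minus the mean of the 6 arrays for the 34 genes, with red for narrow and blue for wide cavities and filled squares for replicate 1. Squares of both colours lie at the left for nidogens and proteoglycans, and all red symbols lie left of all blue ones for Lama3 only.

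**Figure D4:**
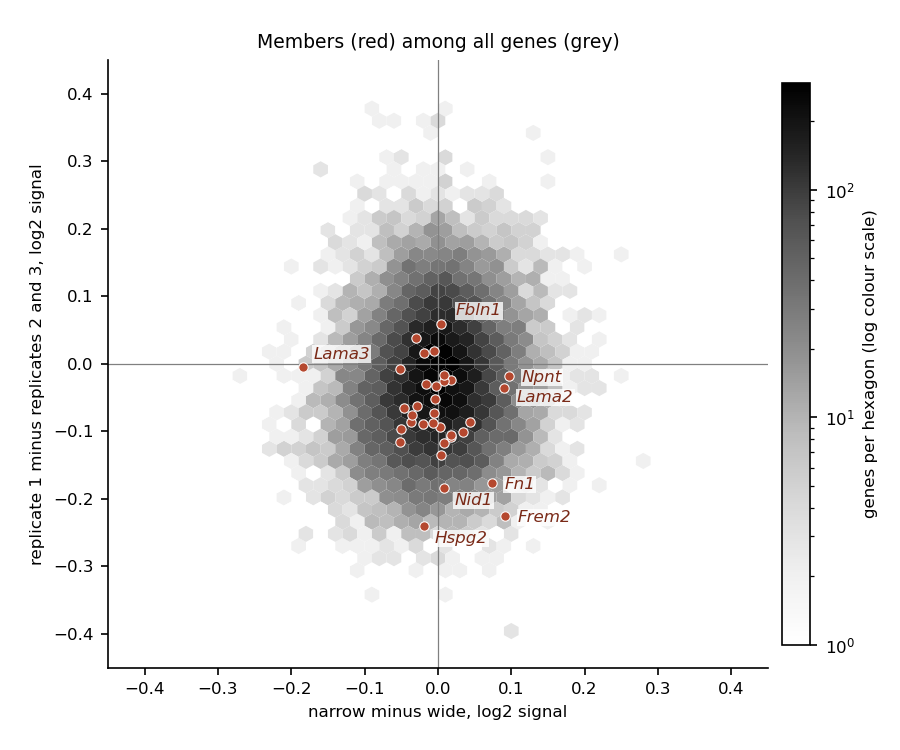
For each gene, the cavity difference (x axis, narrow minus wide) against the mean of the replicate 1 pools minus that of replicates 2 and 3 (y axis), both in log2 signal; red points are the 34 members and grey hexagons count all genes, of which 37 lie outside the square. The members sit close to 0 on the x axis except Lama3 and mostly below 0 on the y axis, 30 of 34, as are 61.4% of all genes.

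Sequences before the starts of 3 members are shown as examples. They precede Nid1, low in both pools numbered 1, Sparc, nearly level over the 6 arrays, and Fbln1, slightly higher in both pools numbered 1. Each is the 250 bases before the RefSeq start (GRCm38.p6), 5′ to 3′ on the gene's strand: Nid1 at chr13:13437352-13437601 (plus strand, partly within an annotated pseudogene), Sparc at chr11:55420081-55420330 (minus strand) and Fbln1 at chr15:85205699-85205948 (plus strand). Capitals mark letters of the 4 motifs searched on both strands, the TATA box TATAAA, the CCAAT box CCAAT, the GC box GGGCGG and the GATA site AGATAA, none of which contains another.
Nid1: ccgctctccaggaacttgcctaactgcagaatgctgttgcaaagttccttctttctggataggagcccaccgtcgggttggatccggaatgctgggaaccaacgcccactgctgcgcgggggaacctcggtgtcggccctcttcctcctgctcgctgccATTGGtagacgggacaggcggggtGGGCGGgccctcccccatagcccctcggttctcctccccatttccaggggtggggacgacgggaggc
Sparc: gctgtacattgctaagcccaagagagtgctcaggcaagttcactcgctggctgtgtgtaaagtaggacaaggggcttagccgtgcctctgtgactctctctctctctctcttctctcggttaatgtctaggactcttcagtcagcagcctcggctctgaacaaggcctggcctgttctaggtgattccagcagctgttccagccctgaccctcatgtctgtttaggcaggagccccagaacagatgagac
Fbln1: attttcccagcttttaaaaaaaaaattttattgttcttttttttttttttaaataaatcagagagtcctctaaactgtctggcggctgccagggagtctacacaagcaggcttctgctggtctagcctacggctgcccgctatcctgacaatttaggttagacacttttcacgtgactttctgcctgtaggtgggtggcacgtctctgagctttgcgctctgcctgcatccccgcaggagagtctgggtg

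The Nid1 window held 1 CCAAT box and 1 GC box, and 64.4% of its bases were G or C. The windows of Sparc and Fbln1 held 0 matches and were 54.0% and 46.4% G or C. Of the 34 members, 23 had an entry in the promoter table. A GC box was found before 13 of these 23, and before 32.9% of the 27025 genes of the table. The table's genes were not matched to the members for G or C content. The 13 included the bright Hspg2, Agrn, Dag1, Lama5 and Lamb1 and, under the median signal, Col4a5, Col4a6, Fbln2 and Ntn4. A CCAAT box was found before 8 of 23, against 34.5%. TATAAA was found before 0 of 23, against 13.0%, and AGATAA before 0 of 23, against 10.3%, in windows of this length.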

How the data were processed

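RNA of 6 pools of embryos was measured on Affymetrix Mouse Gene arrays. The deposited values are log2 signals per array feature, the scale being read from their range of 4.33 to 14.31. The methods of background correction and summarization (not given in the sources used here) stay unknown. The array medians were near-equal, as after scaling between arrays, but whether this was done before deposit is not known. Such scaling would hide any change in total RNA. Of 28853 features, 21789 named 1 gene in the platform annotation, covering 19938 genes. No filter on dim genes was applied, and the precision is limited by having 6 arrays.

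Differences were tested in R 4.3.3 with limma 3.58.1 (lmFit, eBayes, two-sided, no covariate), adjusted by Benjamini-Hochberg over all genes at 0.05, and the fit was tested on simulated data. Errors are SE for differences and SD for groups. P-values measure the spread between pools. Members and lists were chosen with earlier results of these data known. Named members were the main laminin, collagen IV, nidogen, perlecan and Sparc genes and those with the smallest p, and of other lists those with the smallest p. Deviations from group means correlated at 0.516, 0.176 and 0.272 between pools numbered 1, 2 and 3, all above 0.1, which met the rule for pairing, though narrow 2 and wide 3 reached 0.178. Values come from the fit without pairing unless a replicate block is named. The alternatives were a replicate block, other scalings, filters on dim genes, other variance models and leaving out pools.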

Additional observations from a re-analysis of the deposited data

How the results depend on the processing

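Over 16 alternatives 0 genes and 0 of the 34 members passed, the smallest adjusted p being 0.0838 for any gene, with the replicate block. The median difference of the members, -0.003, ran from -0.027 (without narrow 2) to 0.019 (without narrow 1). The 1 member with an unadjusted p under 0.05 became 0 among genes at or above the 50th percentile of signal, a filter that leaves out Lama3. In the 15 other alternatives Lama3 lay between -0.22 and -0.16, with unadjusted p from 0.00183 (replicate block) to 0.0376 (pools numbered 2 and 3 only) and adjusted p of 0.636 or more. The replicate block changed no call, and 1 member had an unadjusted p under 0.05 with it, against 7.25% of genes. Of 526 values of single members, 459 kept their sign and 67, none called, did not. The scalings of the replicate number pattern were chosen after the data were seen. Array background came with no measure, which limits the dim members, and its correction could not be varied from these values.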

Other observations

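On the deposited scaling, 9 of the 22 further genes of basement membrane and adjoining matrix were lowest in both pools numbered 1 and 0 highest, with a median of -0.08 for these pools minus the others. With each array centred on its median 8 were lowest, and after quantile normalization 8. Of 23 receptor and linker genes 7, 5 and 6 were lowest under the same 3 scalings, and 2 were highest on the deposited one. Of 25 genes for folding, export and cross-linking of matrix chains 5, 3 and 4 were lowest, and 3 highest on the deposited scaling. Among 15 proteases and inhibitors 2, 1 and 2 were lowest, and 4 highest on the deposited scaling. The 10 genes for dystroglycan glycosylation had 1, 0 and 1 lowest, and 2 highest on the deposited scaling, with a median of 0.02 there. Over all genes 19.9%, 13.6% and 17.0% were lowest, and 12.2% were highest on the deposited scaling. The other scalings were chosen after the data were seen, and no test of these counts was run.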
